A study of Rattus with 9 samples.

Results

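The immediate early genes are transcribed within minutes of a stimulus, without new protein synthesis, when kinases of the MAP kinase family and calcium or cAMP signals act on factors already bound at their promoters. Several encode the basic leucine zipper proteins of the Fos, Jun and ATF families, which pair with each other to form the transcription factor AP-1. They respond to growth factors, stretch, hypoxia, reperfusion and cytokines, and also to the enzymatic dissociation of tissue at body temperature, which was a step of the protocol here for every sample.

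The 10 genes described here were Fos, Fosb, Jun, Junb and Jund (AP-1 subunits), Atf3 (a stress-induced member of the ATF family that can pair with Jun proteins), Egr1 (a zinc finger factor), Ier2 (a small nuclear protein), Nr4a1 (an orphan nuclear receptor) and Dusp1 (a phosphatase that inactivates MAP kinases). They were chosen by symbol, each matched 1 row, and they are 10 of the 23836 symbols in the count matrices. Single-cell RNA-seq (10x Chromium, 3′ ends) was performed on rat bile duct from 3 groups. Sham was represented by 3 samples of 1 library each. The ctrl group was liver transplantation (LT) with ischemic injury of the graft and held 1 sample for each of post-LT days 1, 3 and 7. In the treat group, arterial flow to the graft was raised in addition by tying off the splenic and gastroduodenal arteries, again with 1 sample each at days 1, 3 and 7. Each transplanted sample comprised 3 libraries, except treat day 3, of which libraries 2 and 3 were analysed and library 1 was not analysed here. No genotype is given and the labels state neither strain nor age. The study's methods name Sprague-Dawley rats of both sexes, with an age range in weeks for the animals in general and not by sample. The study credits its rat single-cell data at post-LT days 1, 3 and 7 to earlier work of its authors, so these details need not hold for the samples here. Whether 1 rat or several gave a sample's libraries is not stated, and its libraries were added up. No transplanted group and day thus had a repeat. P-values between groups rest on the spread among the 3 sham samples and on how far ctrl and treat disagree over the days. That estimate also borrows from other genes. It does not measure the spread between repeats of a transplanted condition, and it may be technical in part.

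After filtering, 139305 cells were retained, with 2273 to 31665 cells and 9309499 to 191404071 UMIs in cells per sample. Sham 1 was the shallowest sample and had the highest median mitochondrial share of the 20 libraries, at 5.14%. In ctrl day 3, libraries 2 and 3 lost 85.9% and 92.2% of their barcodes to the hemoglobin limit and kept 392 and 316 cells. The 3 libraries of ctrl day 1 differed from each other, with Egr1 between 226 and 1091 CPM, UMI counts scaled to a common total. Neutrophils made up 0.0649% to 3.17% of cells in sham and 3.70% to 31.2% in the transplanted samples. Barcodes with 100 UMIs or fewer, which hold free RNA, carried the 10 genes at a summed 3828 to 9230 CPM in sham and 2907 to 7625 CPM in the transplanted libraries. A sum over 14 heat shock genes, which also respond to dissociation, ranged from 5716 to 6108 CPM in sham and from 4187 to 6088 CPM in the transplanted samples. Single transplanted libraries ran from 3194 to 7334 CPM, on both sides of sham. The part of any of these in the results below was not tested unless a value is given.

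Cells fell into 41 clusters, 30 of which were named by marker genes into 15 classes, with 11368 cells left unnamed. The clusters were made without the 10 genes and without the gene lists described at the end. Biliary epithelial cells (BEC), which line the duct, formed 4 clusters with 8 to 12 of 12 listed markers detected, Krt19, Epcam, Krt8 and Krt18 in each. Ranked by fold over the median cluster, 3 or 4 BEC markers stood among the 10 leading genes of each of the 4 clusters. Ranked by fold over all other cells, only cluster 19 had one (Spp1), cluster 11 led with genes that included the goblet marker Fcgbp, and cluster 18 with genes that included the cycling gene Cenpf. The tests of change after LT in BEC and of the difference from BEC are therefore also given without these clusters. The other results on BEC include them.

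The genes were not spread evenly over the bile duct. Levels were expressed as log2(CPM + 1) of the summed class and averaged over the samples with at least 20 cells of that class, giving 92 class-by-sample points in 11 classes. Classes with fewer than 9 samples do not lack the same ones, so the means compare partly different samples. Smooth muscle and mural cells, which form the contractile wall of the duct and its vessels, had the highest mean of Fos, Fosb, Jun, Egr1 and Nr4a1. Blood-borne and lymphoid classes held most of the lowest places.

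**Figure D1:**
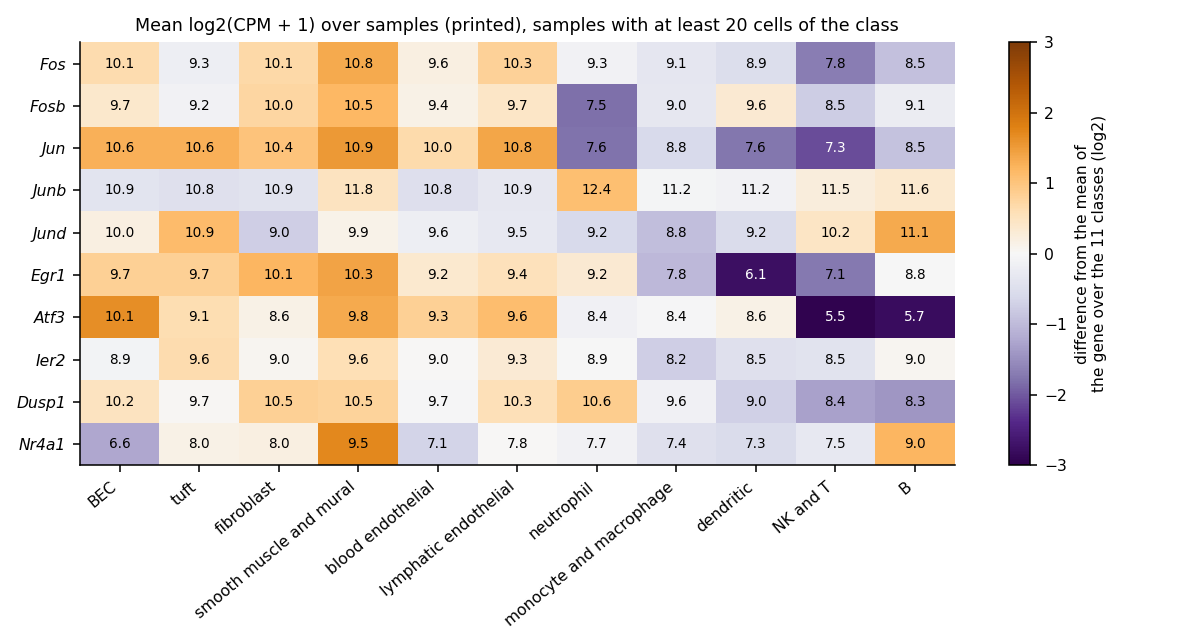
Mean log2(CPM + 1) of each gene (rows) in 11 cell classes (columns), over the samples with at least 20 cells of the class; colour shows the difference from the mean of that gene over the classes, so colours compare classes and not genes. Smooth muscle and mural cells led for 5 of the 10 genes, and NK and T cells were lowest for Fos, Jun and Atf3.

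Among the AP-1 subunits, Fos averaged 10.80 ± 0.66 (SD over 9 samples, log2 scale) in smooth muscle and mural cells, followed by lymphatic endothelium at 10.26 ± 0.96 (n = 7), fibroblasts at 10.14 ± 0.64 (n = 9) and BEC at 10.08 ± 0.42 (n = 9). In the 7 samples that lymphatic endothelium and fibroblasts share, lymphatic endothelium was higher in 4, with a mean difference of -0.00047. NK and T cells were lowest for Fos at 7.76 ± 0.90. Fosb had the same leading class (10.48 ± 0.34) with fibroblasts next (10.03 ± 0.55), and was lowest in neutrophils (7.48 ± 0.78, n = 7). Structural cells thus carried more Fos and Fosb than lymphocytes in these means. Jun was at 10.89 ± 0.36 in smooth muscle and mural cells, at 10.76 ± 0.64 in lymphatic endothelium and at 10.63 ± 0.26 in tuft cells, against 7.27 ± 0.66 in NK and T cells. For Jun, 87.4% of the variance over the 92 points lay between classes, and its levels fell into a group of 6 structural and epithelial classes above 10 and 5 leukocyte classes below 9.

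Junb and Jund were distributed differently. Junb was highest in neutrophils at 12.35 ± 0.73 (n = 7, sham 1 being the 1 sham sample with enough of them), followed by smooth muscle and mural cells (11.77 ± 0.44), B cells (11.63 ± 0.42) and NK and T cells (11.51 ± 0.55), with the lowest mean in blood endothelium (10.77 ± 0.75). In shared samples smooth muscle and mural cells were higher than B cells in 3 of 7, and blood endothelium was 0.08 above lymphatic endothelium. Jund, which is known for a more constant expression than its relatives, was highest in B cells (11.11 ± 0.21, n = 7) and tuft cells (10.91 ± 0.19) and lowest in monocytes and macrophages (8.82 ± 0.47). Only 52.0% of the variance of Junb lay between classes, the lowest share among the 10 genes, against 81.0% for Jund.

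Atf3 was the one gene highest in BEC, at 10.14 ± 0.36 (796 to 1910 CPM over 9 samples), with smooth muscle and mural cells at 9.82 ± 0.66. B cells and NK and T cells held little, at 5.68 ± 0.70 and 5.54 ± 0.72, and ranged from 30 to 115 CPM and from 28 to 126 CPM. Egr1 averaged 10.25 ± 0.43 in smooth muscle and mural cells, 10.06 ± 0.77 in fibroblasts and 9.68 ± 0.48 in BEC. Its lowest class was dendritic cells at 6.08 ± 0.77 (25 to 114 CPM, n = 8). Ier2 led in tuft cells (9.61 ± 0.18), the chemosensory cells of the biliary epithelium, ahead of smooth muscle and mural cells (9.55 ± 0.51), and was lowest in monocytes and macrophages (8.21 ± 0.32). The single tuft cluster had the hormone gene Ghrl among its leading genes, and endocrine markers in it summed to 15.5 to 140 CPM in sham, 15.6 to 1612 CPM in ctrl and 0.886 to 38276 CPM in treat. Their part in the tuft levels of Jun, Jund and Ier2 was not tested. Nr4a1 was at 9.53 ± 0.58 in smooth muscle and mural cells and 9.01 ± 0.47 in B cells, and was lowest in BEC (6.57 ± 0.54, 49 to 130 CPM). BEC were thus at the top of the order for Atf3 and at its bottom for Nr4a1. Dusp1 was highest in neutrophils (10.57 ± 0.64), fibroblasts (10.52 ± 0.49) and smooth muscle and mural cells (10.49 ± 0.40). Its lowest means were those of NK and T cells (8.40 over 9 samples) and B cells (8.29 ± 0.12 over 7), and in the 7 samples they share NK and T cells were higher than B cells in 1, with a mean difference of -0.12.

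Neighbours in these orders were compared over few samples. Over the samples that both neighbours have, the order of the means was turned for 14 of the 100 pairs. Of these pairs of neighbouring classes over the 10 genes, 0 passed Benjamini-Hochberg adjustment in an exact paired permutation test over samples, and 25 had an unadjusted two-sided p under 0.05. The smallest exact p was 0.0039 with 9 samples, for Jund in tuft cells above NK and T cells (0.70 higher on the log2 scale, higher in 9 of 9 samples, adjusted p = 0.0977). With 7 samples the exact test cannot go below 0.0156, so that with 100 pairs the design left little room for a call and the 0 does not show that neighbours were alike. The widest such step was for Atf3 between neutrophils and B cells, 2.68 on the log2 scale in 6 of 6 samples, with an exact p of 0.0312 and an adjusted p of 0.136.

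Across the 92 points, some of the genes kept company. Fos and Dusp1 had a Pearson r of 0.82 and Jun and Egr1 of 0.79, whereas Junb and Jund had mean correlations with the other 9 genes of 0.15 and 0.13. These points share libraries, depth and cell dissociation and are given as a description. By the same measure, the genes outside the list most like the mean of the 10 were Zfp36 (r = 0.84), which promotes decay of AU-rich mRNAs, Nfe2l1 (0.81), Ddah2 (0.80), Id4 (0.79) and Gadd45g (0.78), out of 5155 genes with a mean of at least 20 CPM.

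The next question was how the genes differed between transplanted grafts and sham. In all cells together, most of the 10 genes had lower CPM after LT than in sham, but none passed the test. In sums over all cells, fewer cells of a type and less RNA per cell cannot be told apart. Summed over the 10 genes, sham samples 1, 2 and 3 had 13067, 10669 and 11633 CPM. The ctrl samples had 7803 CPM at day 1, 7322 CPM at day 3 and 7301 CPM at day 7, and the treat samples 6506, 7999 and 7828 CPM at the same days. All 6 transplanted samples lay below all 3 sham samples, and the treat and ctrl samples overlapped. Singly, 8 of the 10 genes showed all 6 transplanted samples below all 3 sham samples in CPM, where 21.5% of all genes tested did so. The exceptions were Junb and Jund. Sham samples were single libraries, while the libraries of a transplanted sample were pooled here and in the comparisons by class below. Of the 8 genes, only Fos and Jun kept the separation by library. Egr1 was at 1091 CPM in ctrl day 1 library 2, above 847 CPM in sham 1. The 10 genes summed to 10535 CPM in that library, beside 10669 CPM in sham 2. CPM leave out the TMM factors that the test applies between samples. These were 1.322, 1.089 and 1.081 for sham 1, 2 and 3 and 0.8801 to 1.004 for the transplanted samples. Separation in CPM is therefore not separation on the scale of the test.

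**Figure D2:**
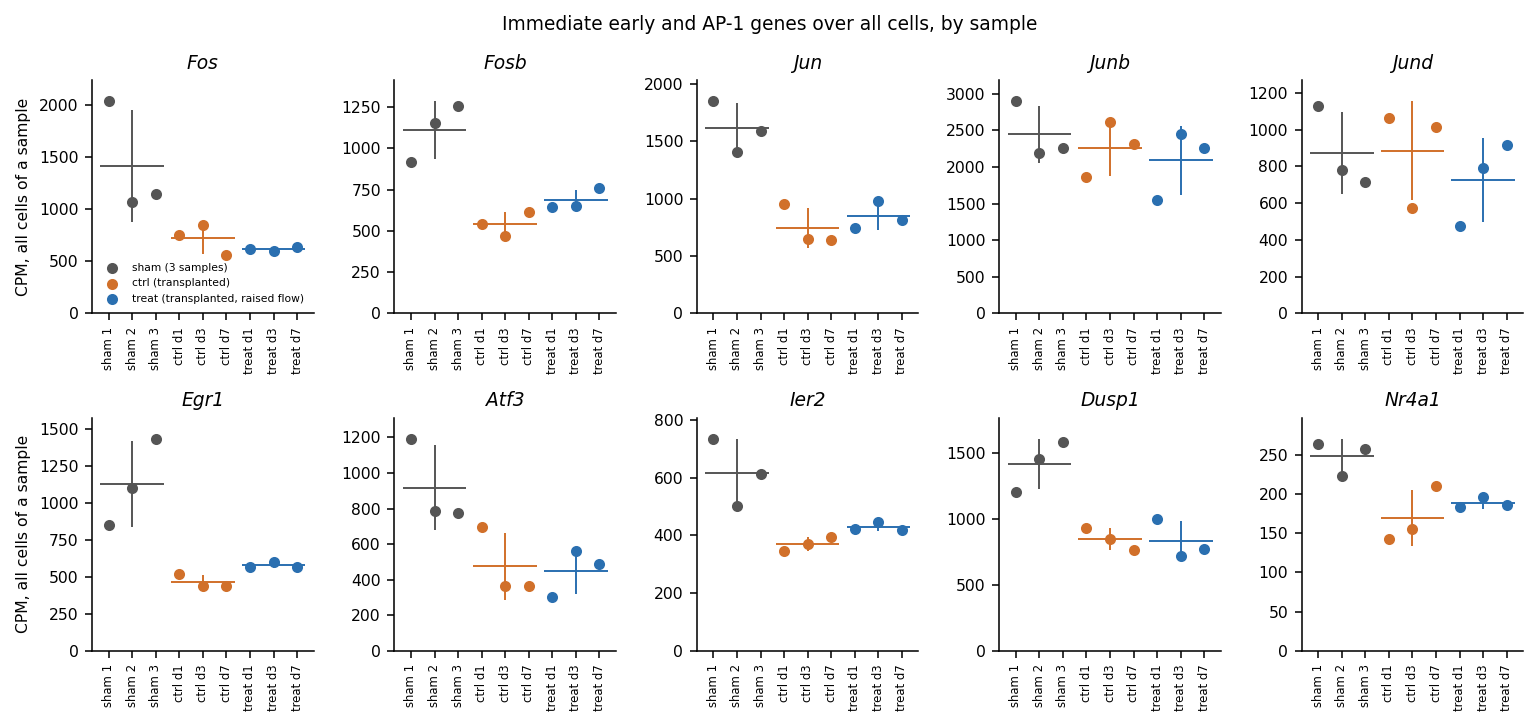
CPM of each of the 10 genes in all cells of each of the 9 samples; points are samples, horizontal lines the mean and vertical lines ± 1 SD of sham, ctrl and treat (3 samples each). In CPM, without TMM scaling, sham lay above the 6 transplanted samples for 8 genes and overlapped with them for Junb and Jund. The libraries of a transplanted sample were pooled.

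Egr1 was at 847, 1101 and 1431 CPM in the sham samples and between 435 and 602 CPM in the transplanted ones. The log2 fold change of ctrl over sham was -0.97 ± 0.28 (SE), with an adjusted p of 0.0693 in edgeR's quasi-likelihood test. Egr1 therefore missed the threshold, and its groups did not overlap in CPM, which leave out the TMM factors. Jun was at 1847, 1409 and 1587 CPM in sham and 638 to 981 CPM in the transplanted samples (-0.77 ± 0.22, adjusted p = 0.0691). Fosb was at 918 to 1259 CPM in sham and 466 to 758 CPM after LT (-0.72 ± 0.23, adjusted p = 0.0857). For Fos, sham 1 stood at 2032 CPM, above sham 2 and sham 3 at 1067 and 1144 CPM, and the transplanted samples were at 556 to 843 CPM (-0.62 ± 0.22, adjusted p = 0.112). None of these 4 genes had a transplanted sample at or above a sham sample in CPM with libraries pooled. Single transplanted libraries lay above sham 1 for Egr1 and Fosb.

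Atf3 (776 to 1192 CPM in sham, 302 to 694 CPM after LT), Dusp1 (1209 to 1586 CPM and 719 to 1004 CPM), Ier2 (500 to 734 CPM and 345 to 446 CPM) and Nr4a1 (223 to 264 CPM and 143 to 210 CPM) also did not overlap between groups in CPM without TMM scaling. This held with libraries pooled, and single transplanted libraries overlapped with sham for each of these genes. With TMM scaling, their log2 fold changes ran from -0.60 to -0.22 and adjusted p in edgeR from 0.147 to 0.433. Junb (0.23 ± 0.16) and Jund (0.37 ± 0.32) had positive values. In all, 0 of the 10 genes were called in either direction, beside 12.6% of all genes, and 5 had an unadjusted p under 0.05, as 33.6% of all genes did. DESeq2 called 3 (Fosb, Jun and Egr1, all lower), beside 29.3% of all genes. In edgeR the median log2 fold change of the 10 genes was -0.51, against -0.06 over all genes. The scaling bears on this. With library size in place of TMM scaling the median over all genes was -0.40 and that of the 10 genes -0.86, 5 genes were called lower (Fosb, Jun, Egr1, Ier2 and Dusp1) beside 12.05% of all genes, the value of Junb turned to -0.13, and the share of called genes that were higher went from 58.7% to 20.8%. Without sham 1, 3 genes were called lower (Fosb, Egr1 and Dusp1) beside 9.58% of all genes, and without treat day 1, 1 gene (Jun) beside 5.94%. With neutrophils left out the count was 0, beside 10.4% of all genes called in either direction, and the median of the 10 genes was -0.55.

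Within cell classes, 16 calls were made after LT, 5 each in NK and T cells and in smooth muscle and mural cells, 3 in blood endothelium, 2 in fibroblasts, both of them lost without 1 cluster described with that class, and 1 (Atf3) in monocytes and macrophages. The test was repeated in the 7 classes with at least 20 cells in every sample, in which all 10 genes passed the low count filter, giving 70 pairs of gene and class. The 16 called were all lower, where 9.31% of all pairs of gene and class were called in either direction and 4.67% were called lower. The estimate was negative in 65 of the 70 pairs, and 36 had an unadjusted p under 0.05, as 26.9% of all pairs of gene and class did. The number depended on the fit, being 4 without day terms, where 1.49% of all pairs were called lower, 5 with only sham and ctrl (1.31%), 30 without TMM (7.13%) and 26 with DESeq2 (6.72%). It also depended on single samples, being 3 without sham 2 (1.46% of all pairs lower), 2 without sham 3 (0.9003%), and 5, 4 and 3 without ctrl day 1, day 3 and day 7 (1.03%, 1.80% and 0.859%). Without treat day 3 it was 24 (4.62%). With 10% of the UMIs of each class sum subtracted as free RNA, with the profile of the near-empty barcodes, it was 10 (3.72%). In each of those fits the pairs called here kept a negative value. Over 21 alternatives, single pairs stayed called in 9 (Fosb in NK and T cells) to 21 (Nr4a1 in smooth muscle and mural cells).

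**Figure D3:**
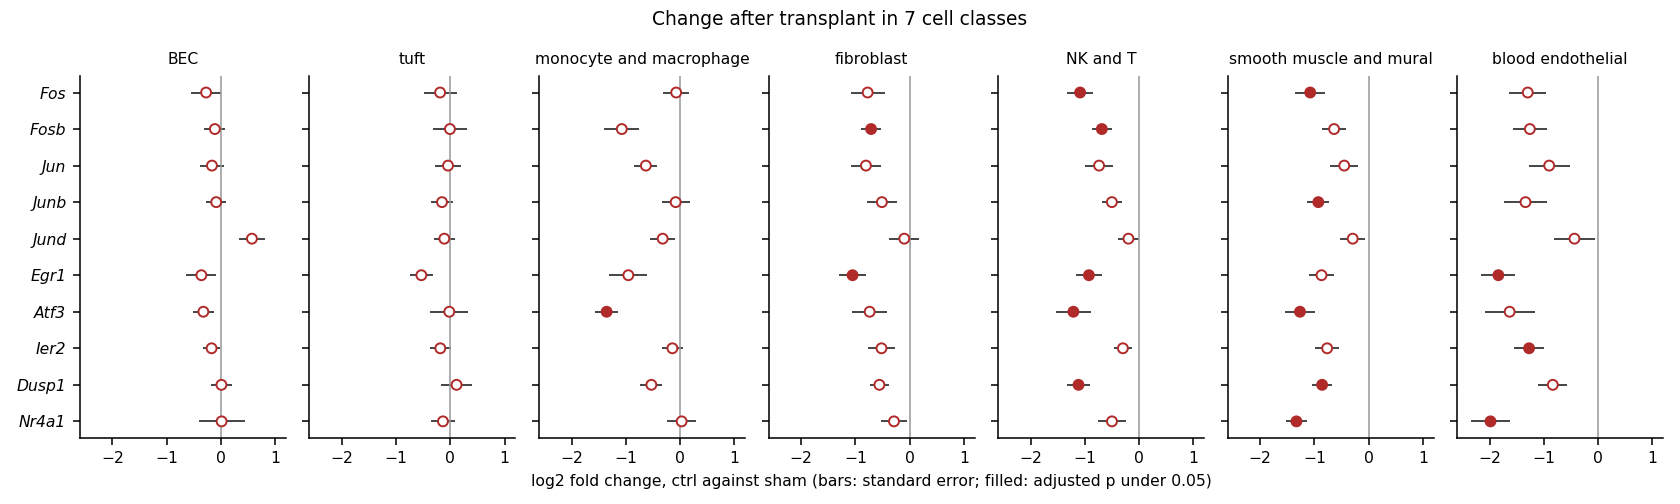
Log2 fold change of ctrl over sham (edgeR, TMM scaling) for the 10 genes (rows) in the 7 cell classes tested (panels); bars are the standard error and filled points passed an adjusted p of 0.05. The 16 filled points were all negative, with 5 each in NK and T cells and in smooth muscle and mural cells and 0 in BEC and tuft cells.

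In blood endothelium, a single cluster, 3 genes were called lower (Egr1, Ier2 and Nr4a1), beside 2.31% of all genes. Nr4a1, which in endothelium responds to inflammatory and growth factor signals, was at 273, 314 and 355 CPM in sham 1, 2 and 3. It was at 69, 49 and 109 CPM in ctrl at days 1, 3 and 7 and at 112, 167 and 102 CPM in treat. Every transplanted sample was below every sham sample, and the log2 fold change was -1.99 ± 0.36 (adjusted p = 0.0272). Egr1, a factor known to respond to shear stress and reperfusion in vessels, was at 967, 1423 and 1555 CPM in sham, at 352, 253 and 472 CPM in ctrl and at 397, 499 and 470 CPM in treat. Here too the groups did not overlap (-1.84 ± 0.31, adjusted p = 0.0247). Ier2 went from 699 to 1184 CPM in sham to 268 to 412 CPM in ctrl (-1.27 ± 0.27, adjusted p = 0.0422). After the subtraction of free RNA, Egr1 (adjusted p = 0.0332) and Nr4a1 (0.0350) stayed called. Ier2 then had -1.31 ± 0.29 and was not called (0.0527). Of the 21 alternatives, 17 kept the call for Nr4a1, 16 for Egr1 and 12 for Ier2. In all, 9 of the 10 genes in blood endothelium had the 6 transplanted samples below the 3 sham samples, against 6.79% of all genes, with Jund the exception. Fos, Fosb, Junb and Atf3 had log2 values of -1.30, -1.26, -1.34 and -1.63 and adjusted p from 0.0587 to 0.0894. The median UMI count per cell was 2274 to 3305 in sham and 3896 to 6338 in ctrl, and summed heat shock CPM was 8768 to 9681 in sham and 5510 to 9940 in ctrl. Neutrophil marker genes summed to 97.2 to 181 CPM in sham, 230 to 712 CPM in ctrl and 123 to 569 CPM in treat, and BEC markers to 203 to 263, 36.8 to 260 and 109 to 126 CPM. The part of these in the result was not tested.

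Smooth muscle and mural cells, also a single cluster, had 5 genes called lower (Fos, Junb, Atf3, Dusp1 and Nr4a1), beside 3.3% of all genes. The leading genes of the cluster held Rgs5 beside Des, Myh11 and Actg2, and the part of its mix of mural and smooth muscle cells was not tested. Nr4a1 was at 1064, 1224 and 1197 CPM in the sham samples, at 426, 519 and 462 CPM in ctrl at days 1, 3 and 7, and at 824, 705 and 709 CPM in treat. The ctrl samples were lowest, the treat samples lay between them and sham, and no groups overlapped. The log2 fold change of ctrl over sham was -1.33 ± 0.20 (adjusted p = 0.00412). Atf3 was at 1472 to 1578 CPM in sham and 601 to 671 CPM in ctrl (-1.27 ± 0.28, adjusted p = 0.0261). Fos was at 3998, 2459 and 2453 CPM in sham and 1146, 2008 and 1281 CPM in ctrl (-1.08 ± 0.27, adjusted p = 0.0481). Junb changed by -0.93 ± 0.20 and Dusp1 by -0.86 ± 0.19. The call was kept in 21 of 21 alternatives for Nr4a1, 16 for Atf3, 14 each for Junb and Dusp1 and 10 for Fos. After free RNA was subtracted, Fos had -1.06 ± 0.29 and was not called (adjusted p = 0.0659). In total 7 of the 10 genes did not overlap, against 6.74% of all genes. Sham held 57 to 111 of these cells per sample and ctrl day 3 held 34. Neutrophil marker genes summed to 19.8 to 33.7 CPM in them in sham and 423 to 820 CPM in ctrl, and their part in the result was not tested.

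**Figure D4:**
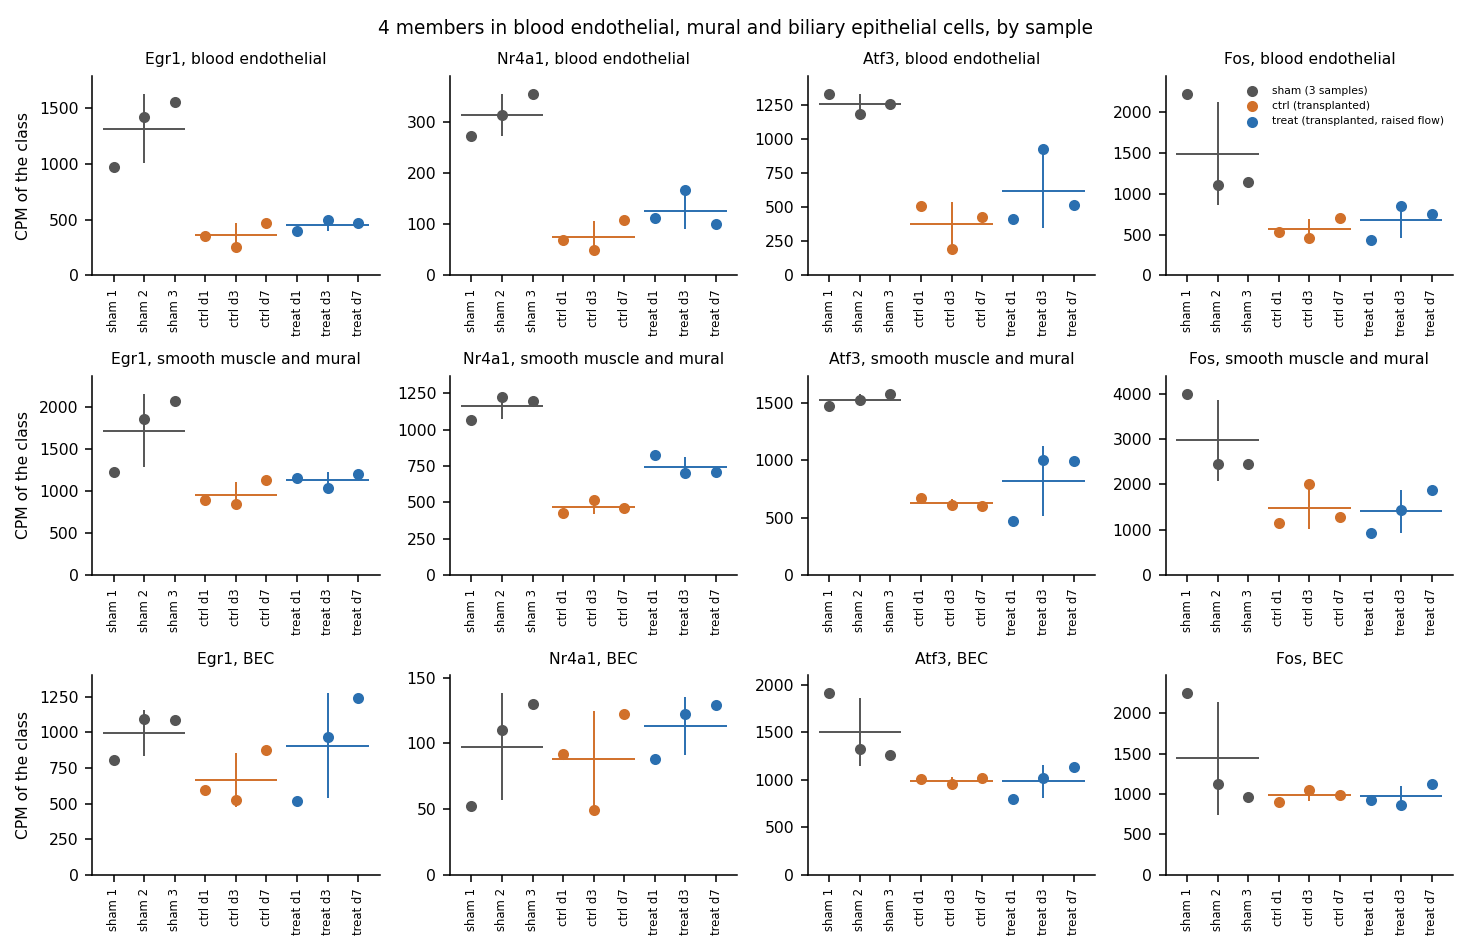
CPM of Egr1, Nr4a1, Atf3 and Fos per sample in blood endothelium, smooth muscle and mural cells, and BEC; points are samples, horizontal lines the mean and vertical lines ± 1 SD of each group of 3 samples. In blood endothelium and in smooth muscle and mural cells Nr4a1 of the transplanted samples lay below sham, and in BEC Nr4a1 overlapped between groups.

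NK and T cells had 5 genes called lower (Fos, Fosb, Egr1, Atf3 and Dusp1), beside 3.02% of all genes. Dusp1, the feedback phosphatase, was at 532, 698 and 638 CPM in sham, at 284, 225 and 281 CPM in ctrl and at 347, 124 and 294 CPM in treat. No transplanted sample reached the lowest sham sample, and the log2 fold change was -1.12 ± 0.21 (adjusted p = 0.00939). Fos was at 584, 418 and 338 CPM in sham and 256, 196 and 135 CPM in ctrl (-1.09 ± 0.24, adjusted p = 0.0226). Atf3, at 65 to 126 CPM in sham and 31 to 40 CPM in ctrl, had -1.21 ± 0.32 (adjusted p = 0.0421). Egr1 (-0.92 ± 0.24) and Fosb (-0.69 ± 0.18) were called with adjusted p of 0.0402 and 0.0414. These cells were few in sham (92 to 412 per sample) and made up of different clusters, with clusters 4 and 15 holding most of them in sham 2 and sham 3 and cluster 6 the largest number at ctrl day 7 and treat day 7. Neutrophil marker genes summed to 29 to 142 CPM in them in sham and 190 to 1019 CPM in ctrl. The 12 BEC markers, none of them at 0 in every sample, summed to 240 to 451 CPM in sham, 68.5 to 238 CPM in ctrl and 70.2 to 133 CPM in treat, so that every transplanted sample lay below every sham sample. With 10% of UMIs subtracted as free RNA, Fos (adjusted p = 0.0434) and Dusp1 (0.0210) stayed called. Fosb then had -0.66 ± 0.21 (adjusted p = 0.0902), Egr1 -0.82 ± 0.24 (0.0722) and Atf3 -1.23 ± 0.49 (0.151). Of the 21 alternatives, 16 kept the call for Fos, 15 for Dusp1, 12 each for Egr1 and Atf3 and 9 for Fosb. The part of these markers in the result was not tested otherwise.

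Monocytes and macrophages had 1 gene called lower, Atf3, beside 6.65% of all genes. Atf3, which restrains cytokine transcription in macrophages, was at 676, 712 and 833 CPM in sham, at 163, 257 and 303 CPM in ctrl and at 145, 243 and 399 CPM in treat. The transplanted samples all lay below sham (-1.35 ± 0.22, adjusted p = 0.00972), and 18 of 21 alternatives kept the call. Fos in the same class was at 650 to 911 CPM in sham and 473 to 777 CPM in ctrl, which overlapped (-0.07 ± 0.24, adjusted p = 0.87). Different clusters made up the class, with cluster 13 leading in sham 1, cluster 21 in sham 2 and sham 3, cluster 8 at day 1 and at ctrl day 3, cluster 3 at treat day 3 and cluster 9 at day 7 of both arms, and the neutrophil markers in it summed to 161 to 221 CPM in sham and 764 to 15424 CPM in ctrl. Summed heat shock CPM was 4532 to 6115 in sham, 3326 to 3815 in ctrl and 4126 to 4323 in treat, so that it did not overlap between sham and the transplanted samples either. The part of these in the result for Atf3 was not tested.

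Fibroblasts had 2 genes called lower, Egr1 and Fosb, beside 8.92% of all genes. Egr1 was at 1658, 1326 and 1891 CPM in sham and at 324, 809 and 1077 CPM in ctrl at days 1, 3 and 7. The ctrl samples lay below sham (-1.05 ± 0.24, adjusted p = 0.0213), while treat, at 839, 1504 and 1197 CPM, overlapped with sham. Fosb was at 1255 to 1587 CPM in sham and 488 to 1061 CPM in ctrl (-0.71 ± 0.19, adjusted p = 0.0357). Of the 21 alternatives, 15 kept the call for Egr1 and 10 for Fosb. After free RNA was subtracted, Fosb had -0.67 ± 0.21 and was not called (adjusted p = 0.0604). Cluster 10 held 50, 1450 and 3426 fibroblasts of the sham samples and at most 26 of any transplanted sample, cluster 7 held most fibroblasts of ctrl and treat at days 3 and 7 and part of those of sham, cluster 20 held 442 of the 504 of ctrl day 1 and 1843 of those of treat day 1, and cluster 14 most of the rest of treat day 1. Median UMI counts were 5667 to 6586 per cell in sham and 9436 to 15266 in ctrl, and neutrophil markers summed to 19.3 to 361 CPM in sham and 433 to 1015 CPM in ctrl. The part of these was not tested. Cluster 20 goes against its name in part. Its leading genes by fold over the other cells began with the insulin genes Ins1 and Ins2 and held none of the fibroblast markers, although 8 of those were detected in it. Endocrine markers in fibroblasts summed to 3.99 to 2224 CPM in sham, 0.695 to 5598 CPM in ctrl and 0.772 to 2.15 CPM in treat. Without cluster 20, which left 62 fibroblasts at ctrl day 1, both calls in fibroblasts were lost (Egr1 -0.87 ± 0.26, adjusted p = 0.0822, and Fosb -0.63 ± 0.18, adjusted p = 0.0742, beside 3.28% of all genes called lower), 4 genes had an unadjusted p under 0.05, all 10 values stayed negative, and 14 of the 70 pairs remained. Egr1 was then at 386, 977 and 1235 CPM in ctrl and 1348 to 1896 CPM in sham. The mean level of Dusp1 in fibroblasts without cluster 20 was 10.60 ± 0.43 over 9 samples, beside 10.57 in neutrophils over 7 samples. Their order in the samples that both have was not compared.

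BEC, the target of ischemic biliary injury, had 0 genes called, where 5.8% of all genes were called lower. In BEC 1 gene had an unadjusted p under 0.05, against 30.7% of all genes, and DESeq2 called 0. Over the classes tested together, DESeq2 called 13.6% of all pairs of gene and class, a share not split by class here. Atf3 was at 1910, 1328 and 1258 CPM in sham, at 1011, 950 and 1015 CPM in ctrl and at 796, 1016 and 1138 CPM in treat (-0.32 ± 0.19, adjusted p = 0.294). It was the 1 gene of BEC with all 6 transplanted samples below sham, against 13.9% of all genes. Fos was at 2248, 1123 and 963 CPM in sham and 904, 1053 and 994 CPM in ctrl, so the groups overlapped apart from sham 1 (-0.27 ± 0.27, adjusted p = 0.533). Egr1 was at 809, 1093 and 1088 CPM in sham, at 593, 523 and 877 CPM in ctrl at days 1, 3 and 7 and at 515, 967 and 1241 CPM in treat, and its groups overlapped (-0.36 ± 0.28, adjusted p = 0.417). Jund had the one sizeable positive value (0.57 ± 0.25, adjusted p = 0.163). The range over the 10 genes was -0.36 to 0.57. BEC of sham 2 and sham 3 were mostly in cluster 19, cluster 11 led in sham 1, ctrl day 1 and ctrl day 3 and cluster 18 at treat day 1, and those of ctrl day 7 and of treat at days 3 and 7 in cluster 2. Neutrophil markers summed to 444 to 727 CPM in BEC of sham and 1412 to 2213 CPM in those of ctrl, and their part was not tested. Without cluster 11, which left at least 191 BEC per sample, 0 genes were again called (7.42% of all genes lower) and 6 of the 10 values were negative. Without clusters 11 and 18 the count was also 0 (3.44%), with 4 values negative and a range of -0.12 to 0.66. Tuft cells also had 0 genes called (0.0696% of all genes lower, 1 gene with an unadjusted p under 0.05 against 12.1% of all genes, DESeq2 0), with values from -0.54 to 0.11. Neutrophil markers in tuft cells summed to 36.8 to 287 CPM in sham and 337 to 2595 CPM in ctrl, and their part and that of the endocrine markers given above were not tested.

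Whether the change in another class differed from that in BEC was tested directly, in a fit of both classes with sample as a block that was added after the results by class were seen. In blood endothelium, 7 of the 10 genes had a lower change than in BEC (Fos, Fosb, Junb, Egr1, Atf3, Ier2 and Nr4a1), beside 2.74% of all genes, and all 10 values were negative. The difference was -2.06 ± 0.27 on the log2 scale for Nr4a1 (adjusted p = 0.00235) and -1.41 ± 0.18 for Egr1 (adjusted p = 0.00203). Jun (-0.74 ± 0.21, adjusted p = 0.0736), Jund (-1.05 ± 0.28, adjusted p = 0.0586) and Dusp1 (-0.83 ± 0.27, adjusted p = 0.109) missed the threshold. The count was 5 without TMM scaling (2.02% of all genes), 3 without sham 2 (0.966%), 4 without sham 3 (1.06%) and 2 without ctrl day 3 (1.01%). NK and T cells differed from BEC for 2 genes, Fos and Dusp1 (3.63% of all genes), monocytes and macrophages for 2, Jund and Atf3 (4.02%), and smooth muscle and mural cells for 1, Nr4a1 (1.66%). Fibroblasts and tuft cells differed from BEC for 0 genes (4.08% and 0.989% of all genes). In fibroblasts all 10 differences were negative, 8 had an unadjusted p under 0.05 (24.2% of all genes), and Jun came nearest (-0.72 ± 0.19, adjusted p = 0.0504). Without cluster 20 the differences were again all negative, 5 had an unadjusted p under 0.05, and Jun had -0.63 ± 0.22 (adjusted p = 0.140). Most of these counts depended on which clusters stood for BEC. Against BEC without cluster 11, all 10 genes had a lower change in blood endothelium (4.02% of all genes), 5 in NK and T cells (3.98%), 3 in monocytes and macrophages (6.03%), 3 in smooth muscle and mural cells (1.98%), 1 in fibroblasts (3.37%) and 0 in tuft cells (1.21%). Against BEC without clusters 11 and 18 the counts were 10 (3.99%), 6 (4.72%), 4 (5.76%), 5 (1.85%), 3 (4.21%) and 0 (1.07%) in the same order, and Nr4a1 in blood endothelium had -2.23 ± 0.25 (adjusted p = 0.000131).

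The number of the 10 genes detected per cell was compared on another scale. A fixed number of UMIs per cell leaves out the TMM factors, as CPM do. Without TMM scaling the median log2 fold change of ctrl over sham over all genes was -0.40. Detection of other genes at this depth was not examined, so the values below have no background beside them. Cells were thinned to 1500 UMIs, and the shallower ones were left out (3439 cells in sham, 9822 in ctrl and 11909 in treat). Sham cells then held on average 5.65 to 6.18 of the 10 genes, ctrl cells 4.26 to 4.31 and treat cells 4.22 to 4.49. Before thinning the means were 5.93 to 7.78, 5.73 to 6.12 and 6.05 to 6.22, and the groups overlapped. Smooth muscle and mural cells held 7.79 to 8.20 genes in sham and 6.08 to 6.66 in ctrl, and blood endothelium 6.22 to 6.69 and 2.95 to 4.41. Before thinning the ranges were 8.84 to 9.51 and 8.37 to 9.05 in the former and 7.15 to 7.72 and 5.01 to 6.28 in the latter. For BEC the thinned ranges met, at 4.97 to 5.999 in sham and 4.13 to 5.89 in ctrl, as did those of tuft cells, at 5.39 to 6.10 and 4.91 to 5.64. NK and T cells, lowest in sham with 4.02 to 4.52, had 3.26 to 3.42 in ctrl. No class is known to lack these genes, so the share due to free RNA was not read from a negative class.

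**Figure D5:**
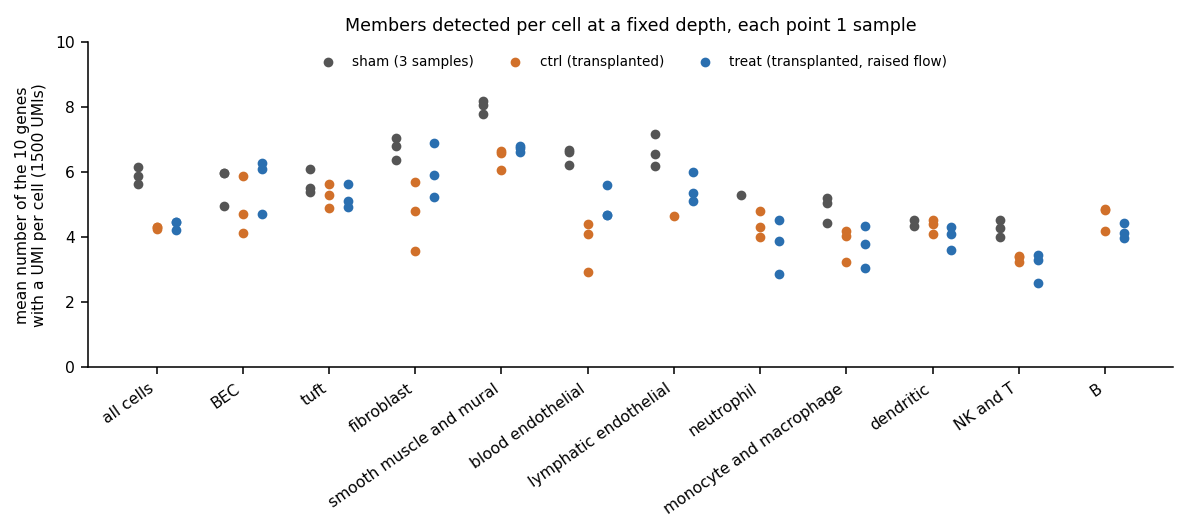
Mean number of the 10 genes with at least 1 UMI per cell, after thinning every cell to 1500 UMIs, by cell class; points are samples, coloured by group. Over all cells sham samples were at 5.65 to 6.18 and the transplanted samples at 4.22 to 4.49, and in BEC the groups overlapped. The values are without TMM scaling, and other genes were not examined in this way.

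Joint detection in the same cells was examined next. At 1500 UMIs, cells with both Fos and Jun were 1.14 to 1.57 times as frequent over all cells as the product of the 2 separate shares, in all 9 samples. Within BEC the ratio was 1.06 to 1.38 and within blood endothelium 1.08 to 1.85. For Junb and Jund over all cells it was 1.01 to 1.06. The ratio cannot exceed the inverse of the larger share, so pairs of genes found in unlike shares of cells cannot be compared by it. Over all cells it also mixes classes with different levels.

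Raised arterial flow was then compared with LT alone, with day as a block. None of the genes passed the test. In all cells 0 of the 10 were called by edgeR, beside 0% of all genes, 0 had an unadjusted p under 0.05 (3.87% of all genes) and DESeq2 called 0 (0.346% of all genes). The values ran from -0.33 ± 0.33 for Jund to 0.29 ± 0.23 for Fosb. Egr1 was at 435 to 519 CPM in ctrl and 566 to 602 CPM in treat, which did not overlap in CPM without TMM scaling. By library its ranges overlapped, at 226 to 1091 CPM in ctrl and 385 to 866 CPM in treat. The share of all genes without overlap between these groups was not counted. With TMM scaling the edgeR estimate was 0.27 ± 0.28 (adjusted p = 0.975). In the classes 0 of 70 pairs were called by edgeR, beside 0.00132% of all pairs of gene and class, and 9 had an unadjusted p under 0.05, as 7.66% of all pairs did. DESeq2 called 1 of the 70, beside 0.659% of all pairs. That pair was Nr4a1 in smooth muscle and mural cells, for which the samples are given above and edgeR gave 0.73 ± 0.19 (adjusted p = 0.341). All 10 genes had positive values in blood endothelium (0.25 to 0.79) and in fibroblasts (0.05 to 0.77), with adjusted p of at least 0.273. Without cluster 20, 9 of the 10 were positive in fibroblasts and 0 were called. These values and those of ctrl over sham share the ctrl samples. In simulated counts of this comparison a planted 2-fold change was recovered for 29.6% of genes in blood endothelium, 28.3% in fibroblasts and 0% in all cells.

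Between day 1 and day 7, over both transplanted arms, calls among the 70 pairs were in fibroblasts. In all cells 0 of the 10 genes were called, beside 3.55% of all genes, 0 had an unadjusted p under 0.05 (22.3% of all genes) and DESeq2 called 0 (16.8% of all genes). In the classes 3 of 70 pairs were called, beside 8.99% of all pairs of gene and class, a share below the background. All 3 were higher at day 7 in fibroblasts, where 15.3% of all genes were called higher. Atf3 in fibroblasts was at 150 CPM in both arms at day 1, at 268 CPM (ctrl) and 823 CPM (treat) at day 3 and at 478 and 622 CPM at day 7. The day 1 samples were the lowest of all 9, sham being at 529 to 591 CPM, and the log2 fold change was 1.60 ± 0.41 (adjusted p = 0.0200). Egr1 rose by 0.94 ± 0.30 (adjusted p = 0.0444), from 324 and 839 CPM at day 1 to 1077 and 1197 CPM at day 7. Dusp1 rose by 0.68 ± 0.22 (adjusted p = 0.0491), from 804 and 1231 CPM to 1601 and 2130 CPM. Without cluster 20, Atf3 (1.79 ± 0.40, adjusted p = 0.0199) and Dusp1 (0.70 ± 0.21, adjusted p = 0.0491) stayed called, Egr1 was not (0.86 ± 0.32, adjusted p = 0.100) and Fosb was (0.83 ± 0.22, adjusted p = 0.0358), where 10.0% of all genes were called higher. The fibroblast clusters differed between these days as given above. The number of pairs called was 0 without ctrl day 7 or treat day 1, 1 without sham 2, sham 3, ctrl day 1 or treat day 7, and 6 without sham 1, while the share of all pairs called ran from 0.883% to 14.5%. In monocytes and macrophages all 10 values were positive (0.44 to 1.21) and 4 had an unadjusted p under 0.05 (17.1% of all genes), with Atf3 nearest to the threshold (1.21 ± 0.27, adjusted p = 0.0568). Whether fibroblasts differed from the other classes in this was not tested.

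The rest of the pathway was described through fixed lists. After LT, 7.39% of all genes tested in all cells were called higher and 5.19% lower, and over the 7 classes 4.65% of all pairs of gene and class were called higher and 4.67% lower, the shares beside which the counts below stand. The median log2 fold change of a list in all cells is given beside that of -0.06 over all genes. Of 14 other AP-1 subunits tested in all cells, 2 were higher and 0 lower (median 0.16), and in the classes 5 of 84 pairs were higher and 5 lower. Batf, a lymphocyte subunit of AP-1, was at 5.80 to 7.10 CPM in sham, 6.49 and 8.57 CPM in the day 1 samples and 27.4 to 56.9 CPM at days 3 and 7 (2.04 ± 0.27, adjusted p = 0.0158). Batf2 was at 0 to 0.0552 CPM in sham and at most 1.00 CPM in any sample, which is near the limit of detection. Both were also higher at day 7 than at day 1 (adjusted p = 0.0222 and 0.0313), and cell composition differed between these samples.

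Among 31 other early response genes, 5 were higher and 1 lower in all cells (median -0.09). Egr3, a relative of Egr1, was at 9.31 to 16.6 CPM in sham and 3.63 to 5.33 CPM in ctrl (-1.08 ± 0.24, adjusted p = 0.0400). Cebpb (0.95 ± 0.17), Gadd45a (1.14 ± 0.18) and Pim1 (1.16 ± 0.27) were higher. In the 7 classes 2 of 210 pairs were called higher and 20 lower. Of 17 MAP kinase phosphatase, sprouty and RNA decay feedback genes, 2 were higher (Dusp2 and Dusp16) and 1 lower (Spry4, -1.47 ± 0.33, adjusted p = 0.0395) in all cells (median -0.18), and 0 of 101 pairs were higher and 10 lower in the classes. Of 22 kinases and factors upstream, 3 were higher and 1 lower in all cells (median -0.05), and 4 of 135 pairs were higher and 5 lower. Map2k1, a kinase of the ERK pathway, was at 42.6 to 51.0 CPM in sham and 55.5 to 103 CPM in ctrl (1.00 ± 0.15, adjusted p = 0.0188), and Map2k6, a p38 kinase activator, at 12.8 to 19.5 CPM and 4.44 to 5.86 CPM (-1.23 ± 0.23, adjusted p = 0.0287).

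Of 21 genes known as AP-1 targets tested in all cells after LT, 4 were higher and 0 lower (median 0.13), and in the classes 15 of 119 pairs were higher and 7 lower. Mmp9, a gelatinase of neutrophils, was at 0.360 to 1.72 CPM in sham and 16.7 to 66.3 CPM in ctrl (5.89 ± 0.55, adjusted p = 0.0112). The neutrophil attractant Cxcl2 was at 620 to 923 CPM in sham and 1680 to 3821 CPM in ctrl (2.02 ± 0.24, adjusted p = 0.0125), and Il1b at 174 to 366 CPM and 743 to 1467 CPM (2.41 ± 0.28, adjusted p = 0.0125). Plaur changed by 1.13 ± 0.26. The neutrophil share given above was also higher in the transplanted samples, and its part in these values was not tested. Of the 15 higher pairs, 5 were in BEC, 5 in fibroblasts, 3 in monocytes and macrophages and 1 each in NK and T cells and in smooth muscle and mural cells, and of the 7 lower pairs 3 were in NK and T cells, 3 in monocytes and macrophages and 1 in fibroblasts. Of 14 heat shock genes, 0 were higher and 1 lower (Hspb1, -1.02 ± 0.25, adjusted p = 0.0493) in all cells (median -0.03), and 1 of 95 pairs was higher and 8 lower in the classes. At day 7 against day 1, 2.72% of all genes were called higher in all cells and 0.832% lower. Over the classes 4.66% of all pairs of gene and class were called higher and 4.33% lower. Of the other AP-1 subunits 3 of 84 pairs were higher and 3 lower, of the early response genes 11 of 210 and 2, of the feedback genes 6 of 101 and 1, of the kinases and factors upstream 4 of 135 and 2, of the AP-1 targets 4 of 119 and 6, and of the heat shock genes 1 of 95 and 8. Of the lists in all cells, besides Batf and Batf2, Cebpd was lower (-1.78 ± 0.34, adjusted p = 0.0495), and Tnfaip3 (1.61 ± 0.22) and Dusp2 (2.26 ± 0.34) were higher. With raised flow against LT alone, 0 genes of any list were called in all cells or in the classes.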

How the data were processed

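Single-cell RNA-seq of rat bile duct was analysed in 9 samples (20 libraries) from unfiltered matrices. Per the file headers the authors deposited UMI counts made with Cell Ranger 4, while the submitters' processing notes name Cell Ranger 5.0.1 and Seurat 3.2.0. The genome build is not given in the sources used here, so no coordinates or sequences are shown. Tissue was digested enzymatically at body temperature, red cells were lysed and dead cells removed.

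Barcodes with 400 to 6000 genes, at most 25% mitochondrial and at most 3% hemoglobin UMIs were kept (150182), and 10877 were removed as doublets by a score against simulated doublets. Cells were clustered (leidenalg 0.10.2, resolution 0.9) and clusters were named from fixed marker lists. The naming rule was revised after leading genes and cluster sizes were seen, before any test between groups. UMIs were summed per sample and class and tested with edgeR 4.0.16 (R 4.3.3; quasi-likelihood test, TMM scaling, filterByExpr, Benjamini-Hochberg adjustment over all genes, threshold 0.05) in 1 fit of 9 samples with group and day terms and 4 residual degrees of freedom. DESeq2 1.42.0 was an alternative. Levels were log2(CPM + 1), and neighbouring classes were compared by a two-sided exact paired permutation test. The steps were tested on simulated data. In all cells a planted 4-fold change of ctrl over sham was recovered for 47.4% of genes and a 2-fold change for 0%. These were 97 and 99 of 16469 genes, whereas 12.6% of all genes were called in the data. Fewer changed genes make the adjusted threshold stricter, so the 0% is not the recovery in the data. Changes under 2-fold were called there, such as Cebpb (0.95 ± 0.17, adjusted p = 0.0254 in edgeR).

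The 10 genes and all lists were chosen with earlier results of these data known. All 10 genes are named, with at most 4 called genes per list and comparison by size of change and the 5 genes most like their mean. The comparison with BEC and some alternatives were added after results were seen. Libraries of 1 sample shared at most 0.352% of barcodes and differed beyond sampling noise (chi-square per degree of freedom of at least 11.99).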

Additional observations from a re-analysis of the deposited data

Results flagged for a closer look

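In 12 pairs of gene and class, the change of ctrl over sham was lower than in BEC by a test of the difference itself (edgeR, both classes in 1 fit with sample as a block, adjusted over all genes). Of all genes tested, 2.74% were lower than in BEC in blood endothelium, 3.63% in NK and T cells, 4.02% in monocytes and macrophages and 1.66% in smooth muscle and mural cells. All values are differences of log2 fold changes. In blood endothelium they were -2.06 for Nr4a1, -1.41 for Egr1, -1.40 for Atf3, -1.29 for Junb, -1.12 for Fosb, -1.04 for Ier2 and -1.02 for Fos. Fos stood closest to the threshold there (adjusted p = 0.0497). In NK and T cells they were -1.05 for Dusp1 and -0.79 for Fos. Monocytes and macrophages differed from BEC by -1.01 for Atf3 and -0.89 for Jund, and smooth muscle and mural cells by -1.29 for Nr4a1. Without BEC clusters 11 and 18 all 12 were again called. The test was added after the changes by class had been seen, and all classes come from the same 9 samples.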

How the results depend on the processing

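In all cells, the count of genes called for ctrl over sham was 0, against 5 without TMM scaling, 3 with DESeq2, 2 with each library as its own sample and 0 to 3 when 1 sample was left out, while 12.6% of all genes were called in either direction, against 15.2%, 29.3%, 20.4% and 0% to 23.1%. For pairs of gene and class the count was 16, against 30 without TMM, 26 with DESeq2, 4 without day terms, 5 with only the 2 groups compared, 10 after the subtraction of free RNA, and 2 to 24 with 1 sample left out, where the share of all pairs called went from 9.31% to 9.34%, 13.6%, 2.82%, 2.41%, 7.43% and 1.51% to 15.5%. For raised flow DESeq2 called 1 pair, and 0 were called in the other alternatives. For day 7 against day 1 the 3 pairs became 8 without TMM, 5 with DESeq2, 7 with libraries as samples, 12 with only the 2 groups, 1 with doublets kept, 1 after the subtraction of free RNA, and 0 to 6 with 1 sample left out, beside 8.99% of all pairs called against 8.19%, 11.8%, 20.7%, 17.3%, 8.83%, 7.85% and 0.883% to 14.5%. The 7 genes that differed between blood endothelium and BEC, beside 2.74% of all genes lower, became 5 without TMM (2.02%) and 2 to 9 with 1 sample left out (0.966% to 3.56%). They became 10 without BEC cluster 11 (4.02%) or clusters 11 and 18 (3.99%). The test of neighbouring classes could hardly pass with 5 to 9 samples, so its 0 calls say nothing about stability. Some values in all cells changed sign. For ctrl over sham, Junb was -0.13 without TMM, and Jund ranged from -0.11 to 0.79 with 1 sample left out, being negative without ctrl day 1. For raised flow, the ranges with 1 sample left out were -0.11 to 0.43 for Jun, -0.77 to 0.12 for Jund, -0.50 to 0.48 for Atf3 and -0.022 to 0.34 for Nr4a1, with the sign turned without a day 3 sample for Jun and Nr4a1 and without a day 1 sample for Jund and Atf3. For day 7 against day 1 they were -0.73 to 0.13 for Jun, -0.31 to 1.06 for Jund, -1.07 to 0.69 for Atf3, -0.16 to 0.22 for Ier2 and -0.12 to 0.58 for Nr4a1, with the sign turned without ctrl day 1 (Jun, Atf3, Ier2), ctrl day 7 (Atf3, Ier2, Nr4a1) or treat day 1 (Jund), and Ier2 was -0.0100 with doublets kept. The causes were not tested. For raised flow the fit compared ctrl and treat within days, and without the day terms 0 genes and 0 pairs were called as well. No paired analysis was possible because, for ctrl over sham, the labels tie no sham sample to a day or to a transplanted sample.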
